A study of Mus musculus with 8 samples.

Results

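A set of 9 genes that lie on both sides of *Scn1a* on mouse chromosome 2 and do not encode sodium channels were followed across 8 brain RNA-seq libraries. They are *Grb14*, *Cobll1*, *Slc38a11*, *Csrnp3*, *Galnt3*, *Ttc21b*, *Xirp2*, *B3galt1* and *Stk39*, taken by symbol, and all 9 were found among the 24015 entries of the count table. Each library came from 1 mouse at P7 of the C57BL/6N strain. There were 2 WT mice, 4 mice with 1 deleted copy of the 1b interval of *Scn1a* (1b+/-) and 2 mice with both copies deleted (1b-/-). The 1b interval is conserved non-coding DNA around an alternative transcription start of *Scn1a*, and no other allele or agent was given for any group. The line was made with Cas9 and goes back to a single deletion allele bred to WT mice over several generations, so a second deletion allele was not compared. Both WT mice were male and both 1b-/- mice were female, whereas the 1b+/- mice were 2 males (replicates 1 and 2) and 2 females (replicates 3 and 4). Genotype and sex therefore cannot be told apart between WT and 1b-/-. Where sex is a covariate below, the sex difference comes from the 4 1b+/- libraries. The value for 1b-/- against WT then assumes that the same difference holds in those genotypes, which was not tested. The labels call the tissue hippocampus while the study's methods place these P7 libraries in forebrain. The 10 hippocampal markers summed to 320 to 543 CPM, the count of a gene relative to the TMM-scaled depth of its library over the 8 libraries, and the 8 forebrain markers to 2199 to 4067 CPM. The 2 lists hold different genes, so their sums cannot be compared and do not settle which tissue was taken.

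The 9 genes have unrelated products. *B3galt1* and *Galnt3* encode Golgi enzymes that add sugars, *B3galt1* by placing galactose in beta-1,3 linkage and *Galnt3* by starting mucin-type O-glycans with N-acetylgalactosamine. *Stk39* encodes SPAK, the kinase that WNK kinases activate and that phosphorylates cation-chloride cotransporters. *Grb14* encodes an adaptor that binds the activated insulin receptor. *Ttc21b* encodes a subunit of the IFT-A complex, which carries cargo along the primary cilium. *Csrnp3* belongs to a family of nuclear proteins rich in cysteine and serine that bind DNA. *Cobll1* is a relative of the actin nucleator Cordon-bleu, *Xirp2* encodes an actin-binding repeat protein best known from striated muscle, and *Slc38a11* belongs to the amino acid transporter family SLC38. A gene and its neighbours can share enhancers within a stretch of chromatin, so removal of a regulatory interval at one gene raises the question of whether the genes beside it changed too.

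Of the 9 genes, 6 lie on the side where *Scn1a* transcription ends and 3 on the side of the *Scn1a* starts. Positions were read from the GENCODE annotation of mm9, the build of the deposited counts. There the 1b transcript of *Scn1a* begins with an exon at chr2:66247919-66248121 on the minus strand, and this exon lies in the deleted interval by the study's methods. *Ttc21b* (chr2:66022384-66094674, minus strand) was nearest, with its annotated start 153 kb from the 1b exon. *Galnt3* (chr2:65920823-65963051, minus strand) started 285 kb away and *Csrnp3* (chr2:65683824-65869603, plus strand) 564 kb away. Beyond the sodium channel genes *Scn2a1* and *Scn3a*, *Slc38a11* (chr2:65154487-65202091, minus strand) started 1046 kb away, *Cobll1* (chr2:64926396-65077460, minus strand) 1171 kb away and *Grb14* (chr2:64750533-64863044, minus strand) 1385 kb away. On the other side, past *Scn9a* and *Scn7a*, *Xirp2* (chr2:67284059-67364671, plus strand) started 1036 kb away. *B3galt1* (chr2:67942728-67960746, plus strand) started 1695 kb away and *Stk39* (chr2:68048502-68310325, minus strand) 2062 kb away. RefSeq holds a further *B3galt1* start 1156 kb from the 1b exon, which the GENCODE model used here lacks. Annotated antisense transcripts overlap *Cobll1*, *Csrnp3*, *Ttc21b* and *Xirp2*. None of these antisense transcripts had an entry of its own in the count table, and whether reads were counted by strand was not given in the sources used here.

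The sequences before the starts differed widely in their content of CG dinucleotides. RefSeq (GRCm38.p6) gave 11 start sites for the 9 genes, and the 250 bases before each start are described here. The coordinates printed with the windows below are those of GRCm38.p6 and cannot be set beside the mm9 positions above. Across 32841 such windows of the mouse genome the median held 6 CG dinucleotides, and the median ratio of observed to expected CG was 0.374. Of the 11 windows of the flanking genes, 8 were above that ratio. The windows of *Stk39*, *Galnt3* and *Cobll1* held 43, 34 and 33 CG, with ratios of 1.01, 0.989 and 0.979. *Grb14* held 24, *Ttc21b* 20 and *Slc38a11* 13. *B3galt1* held 18 at the far upstream start and 3 at the other, *Csrnp3* held 3 and 8, and *Xirp2* held none. The windows of 5 genes are printed 5′ to 3′ on the strand of the gene, with every CG in capitals: those of the gene nearest to 1b (*Ttc21b*), of the 2 genes on which the comparisons below turn (*B3galt1*, at its CpG-rich start, and *Stk39*), and of the genes with the highest (*Csrnp3*, first start) and the lowest level (*Xirp2*).
Ttc21b, chr2:66256618-66256867, - strand: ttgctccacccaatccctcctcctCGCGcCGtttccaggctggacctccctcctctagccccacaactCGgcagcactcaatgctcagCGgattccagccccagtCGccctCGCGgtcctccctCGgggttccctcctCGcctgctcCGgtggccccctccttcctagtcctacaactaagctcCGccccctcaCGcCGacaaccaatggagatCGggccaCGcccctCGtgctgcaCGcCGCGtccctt
B3galt1, chr2:67565439-67565688, + strand: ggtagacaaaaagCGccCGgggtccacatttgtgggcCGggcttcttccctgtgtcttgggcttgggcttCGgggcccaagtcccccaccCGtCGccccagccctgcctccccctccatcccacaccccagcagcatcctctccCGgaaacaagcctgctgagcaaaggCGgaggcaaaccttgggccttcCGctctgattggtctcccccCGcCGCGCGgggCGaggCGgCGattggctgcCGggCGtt
Stk39, chr2:68471982-68472231, - strand: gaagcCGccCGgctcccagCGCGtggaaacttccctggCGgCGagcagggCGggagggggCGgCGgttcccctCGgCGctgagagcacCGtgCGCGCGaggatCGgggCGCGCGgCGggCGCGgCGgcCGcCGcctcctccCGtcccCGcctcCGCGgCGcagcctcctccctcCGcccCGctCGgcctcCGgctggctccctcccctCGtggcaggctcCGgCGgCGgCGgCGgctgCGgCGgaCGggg
Csrnp3, chr2:65845517-65845766, + strand: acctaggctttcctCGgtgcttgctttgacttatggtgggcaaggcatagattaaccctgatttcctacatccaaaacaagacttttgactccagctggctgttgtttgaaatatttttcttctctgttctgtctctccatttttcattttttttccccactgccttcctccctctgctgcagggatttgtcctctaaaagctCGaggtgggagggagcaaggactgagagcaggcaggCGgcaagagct
Xirp2, chr2:67445752-67446001, + strand: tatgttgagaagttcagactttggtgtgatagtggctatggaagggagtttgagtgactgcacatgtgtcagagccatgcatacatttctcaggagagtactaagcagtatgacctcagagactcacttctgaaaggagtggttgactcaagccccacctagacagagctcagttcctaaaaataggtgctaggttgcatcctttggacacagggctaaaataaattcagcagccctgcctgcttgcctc

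Searched on both strands, the letters CCAAT were in 4 of the 11 windows and in 33.9% of all windows, GGGCGG in 5 of 11 and 32.7%, and TATAAA in 0 of 11 and 12.4%. Matches of different motifs may overlap. The *Ttc21b* window printed above held both CCAAT and GGGCGG, and that of *Stk39* held GGGCGG without CCAAT.

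The 9 genes ranged from abundant to barely measured. Library depth ran from 2947770 to 20878772 counts, and all levels below are CPM after TMM scaling. To compare genes with each other, CPM was divided by the kb of annotated exon, on which *Csrnp3* led with a median of 49.4 CPM per kb over the 8 libraries (range 41.3 to 61.4). *B3galt1* followed at 19.2 (15.2 to 24.8) and *Stk39* at 15.1 (14.6 to 17.3). Their ranges overlapped, so their order is not resolved. *Ttc21b* came next at 6.07 CPM per kb (5.43 to 6.59) and *Grb14* at 2.98 (2.16 to 3.94), with no overlap between *Stk39*, *Ttc21b* and *Grb14*. The last 5 ranks each overlapped the next: *Grb14*, *Cobll1* at 1.60 (0.981 to 2.25), *Galnt3* at 0.503 (0.308 to 1.12), *Slc38a11* at 0.264 (0 to 0.595) and *Xirp2* at 0.0974 (0 to 0.186). Compared within each library, *Grb14* was above *Cobll1* and *Cobll1* above *Galnt3* every time. The annotation behind the counts was not given in the sources used here, so the exon lengths are those of GENCODE. Set beside the CG content before the starts, *Csrnp3*, the highest gene, had ratios of 0.212 and 0.675 at its 2 starts, *Galnt3* 0.989 at a low level, and *Xirp2*, the lowest, 0.

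**Figure D1:**
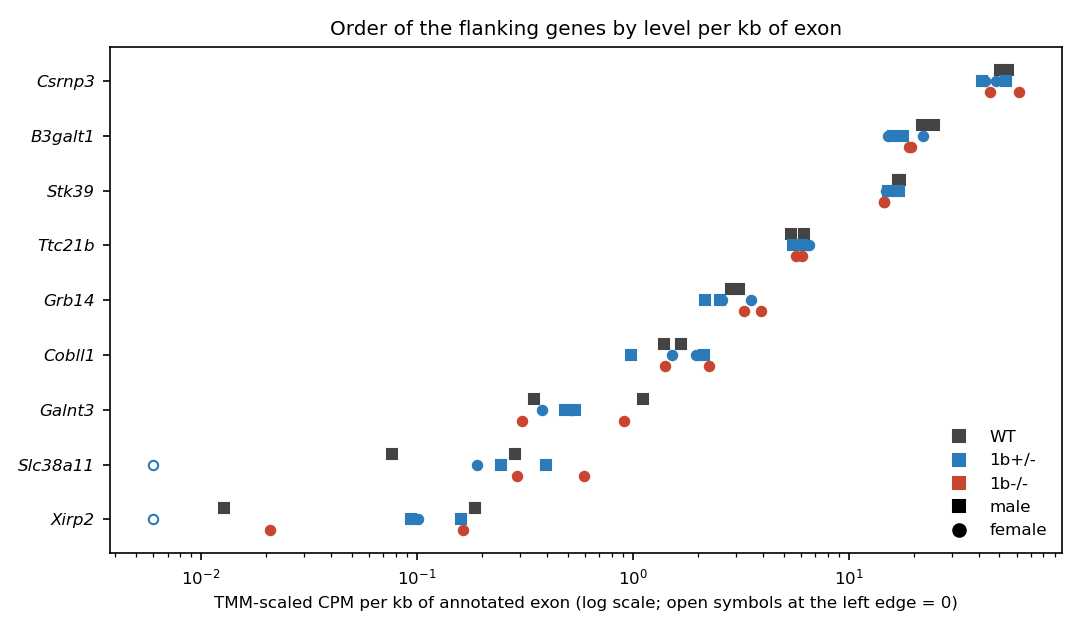
Level of each flanking gene in each library as TMM-scaled CPM per kb of annotated exon, on a log axis. Colours give the genotype, squares are males and circles females, and open symbols at the left edge are libraries at 0. *Csrnp3* lies above all other genes in every library. *Slc38a11* and *Xirp2* have the lowest medians, each at 0 in 1b+/- replicate 4, though *Galnt3* lies below *Slc38a11* in 1b-/- replicate 1.

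**Figure D2:**
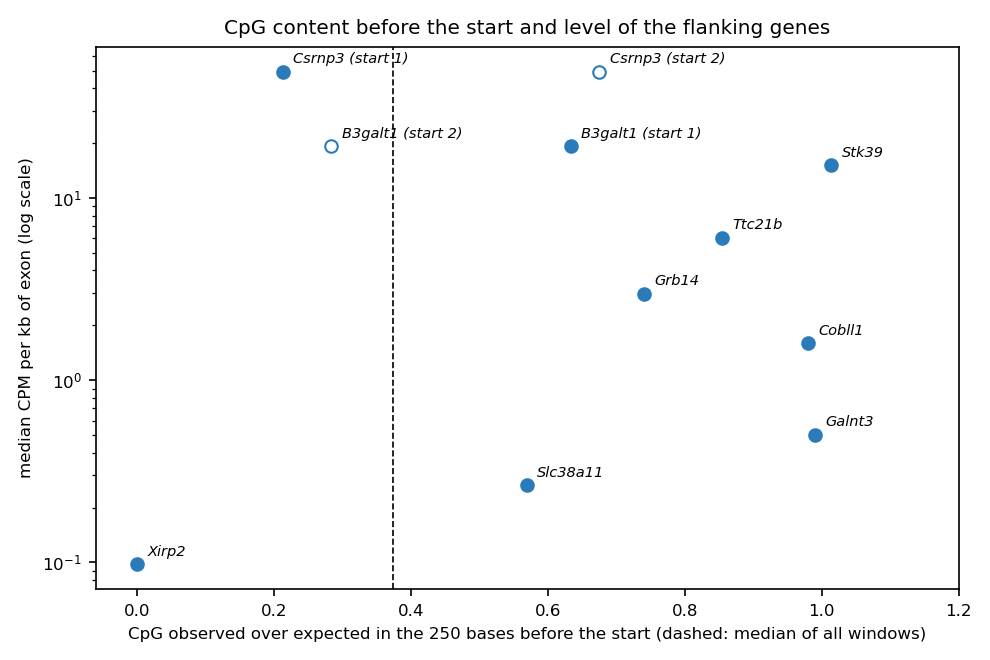
Median CPM per kb of exon over 8 libraries (log axis) against the ratio of observed to expected CG in the 250 bases before each RefSeq start. Filled points are the first start of a gene, open points the second, and the dashed line is the median of all windows (0.374). *Stk39*, *Galnt3* and *Cobll1* share ratios near 1 at very different levels.

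No flanking gene passed the test in any genotype comparison. The test was edgeR's quasi-likelihood test on the counts of all 8 libraries, with Benjamini-Hochberg adjustment over the 15588 genes that reached 1 CPM in at least 1 library. All 9 genes were tested: 7 reached 1 CPM in all 8 libraries, and *Slc38a11* and *Xirp2* in 5 each. At an adjusted p under 0.05, 0 of 9 were called in 1b+/- against WT, where 0.0834% of all genes were called. The count was 0 of 9 again for 1b-/- against either other genotype, where 0.00642% of all genes were called in each case. Along the number of deleted alleles 0 of 9 were called, against 0.0385% of all genes. At an unadjusted p under 0.05, 1 of 9 passed in 1b+/- against WT (*B3galt1*), against 4.34% of all genes, and 0 of 9 passed in the other 3 comparisons, where 1.64%, 1.23% and 1.73% of all genes did. With DESeq2 no flanking gene was called either. The comparisons against WT share the same 2 WT libraries.

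*Scn1a* itself, measured in the same libraries, was at 45.1 and 40.5 CPM in WT, at 26.7, 22.2, 25.4 and 15.7 CPM in 1b+/-, and at 3.18 and 2.003 CPM in 1b-/-. Its log2 fold change in 1b-/- against WT was −3.97, with a 95% interval from −4.66 to −3.28 and an adjusted p of 5.96e-04 by edgeR's quasi-likelihood test. No flanking gene had an interval that reached into that range. In 1b+/- against WT the *Scn1a* value was −0.90 with an adjusted p of 0.381 by the same edgeR test. Its interval ran from −1.35 to −0.45, and the intervals of 7 flanking genes overlapped it. Only those of *Slc38a11*, *Galnt3* and *Xirp2* reached down to −0.90. *Ttc21b* and *Stk39* were the 2 whose intervals did not overlap it. The median log2 fold change of the 9 genes was −0.13 for 1b+/- and 0.02 for 1b-/-, each against WT. Over all genes tested these medians were 0.01 and −0.0056.

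**Figure D3:**
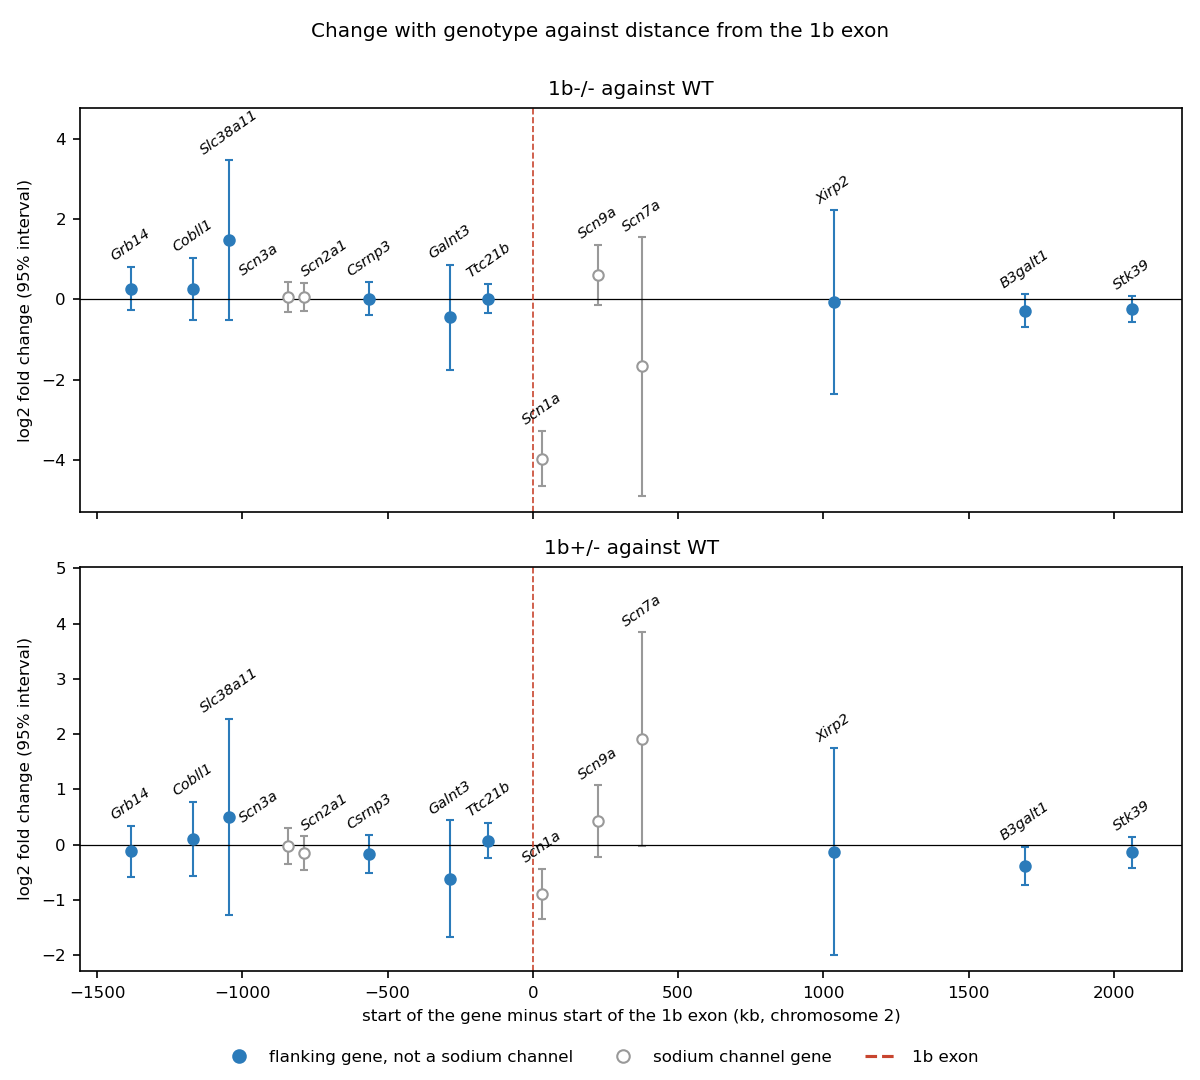
Log2 fold change against WT of each flanking gene (filled) and of the 5 sodium channel genes of the locus (open), plotted by the distance of the annotated gene start from the start of the 1b exon. Bars are 95% intervals from the fit across all genes. In 1b-/- (top) *Scn1a* lies at −3.97 while the intervals of all 9 flanking genes include 0.

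*B3galt1* came closest to a difference. It was at 124.6 and 110.5 CPM in WT, at 81.2, 90.1, 111.2 and 76.5 CPM in 1b+/-, and at 97.7 and 95.6 CPM in 1b-/-. Replicate 3 of 1b+/- lay just above the lower WT library, whereas both 1b-/- libraries lay below both WT libraries. The log2 fold change in 1b+/- against WT was −0.38 (SE 0.16, 95% interval −0.73 to −0.04), where the adjusted p was 0.9999 and the unadjusted p 0.0331 by edgeR's quasi-likelihood test. The value in 1b-/- against WT was −0.28 (interval −0.69 to 0.13), or −0.43 with sex as a covariate. Between 1b-/- and 1b+/- it was 0.10 (interval −0.25 to 0.46). Without WT replicate 1 the value in 1b+/- against WT was −0.29 and the unadjusted p rose to 0.203, and without 1b+/- replicate 3 it was −0.50 with an unadjusted p of 0.0072. The adjusted p ranged from 0.866 to 1 over its 16 alternatives.

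*Stk39* had the narrowest range of the 9 genes, 1.19-fold from its lowest to its highest library. The WT libraries held 85.7 and 84.0 CPM, the 1b+/- libraries 84.9, 75.1, 74.4 and 73.8 CPM, and the 1b-/- libraries 72.1 and 72.4 CPM. Replicate 1 of 1b+/- sat between the WT libraries, and the other 3 sat between WT and 1b-/-. Both 1b-/- libraries were below every other library. The log2 fold changes were −0.14 (95% interval −0.42 to 0.14) in 1b+/- against WT and −0.23 (−0.56 to 0.10) in 1b-/- against WT. Per deleted allele the value was −0.12 (−0.27 to 0.03), where the adjusted p was 0.9999 and the unadjusted p 0.119 by edgeR's quasi-likelihood test. With sex as a covariate the value in 1b-/- against WT was −0.12. *Stk39* had the highest correlation with *Scn1a* of the 9 genes (r = 0.75 over 8 libraries that include the deletion groups), a description of the same values.

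Tissue content moved between these libraries as well. A list of 10 epithelial markers held keratins, uroplakins and mesothelin, none at 0 throughout. These summed to 164 and 43.4 CPM in WT, to 2.08 to 8.58 CPM in 1b+/- and to 2.504 to 6.12 CPM in 1b-/-. The list was chosen with earlier results of these data known, so its high sums in WT are a description only. The 12 choroid plexus markers summed to 1059 to 1115 CPM in WT, 116 to 1071 CPM in 1b+/- and 509 to 937 CPM in 1b-/-. The 16 midbrain and hindbrain markers summed to 130 CPM in 1b+/- replicate 1, the library with the high *Stk39* value, against 18.2 to 42.2 CPM in the other 7. The 13 vascular and meningeal markers were highest in that library too, at 2321 CPM against 836 to 1468 CPM. The same library was lowest in forebrain (2199 CPM) and hippocampal markers (320 CPM). Forebrain markers had a median log2 fold change of −0.21 in 1b+/- and −0.20 in 1b-/-, each against WT, and none was called. The 10 oligodendrocyte markers summed to 170 and 215 CPM in WT, 244 to 284 CPM in 1b+/- and 209 to 220 CPM in 1b-/-. The part of these contents in the *B3galt1* and *Stk39* values was not tested. In whole tissue, fewer cells of a type and less RNA per cell cannot be told apart.

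**Figure D4:**
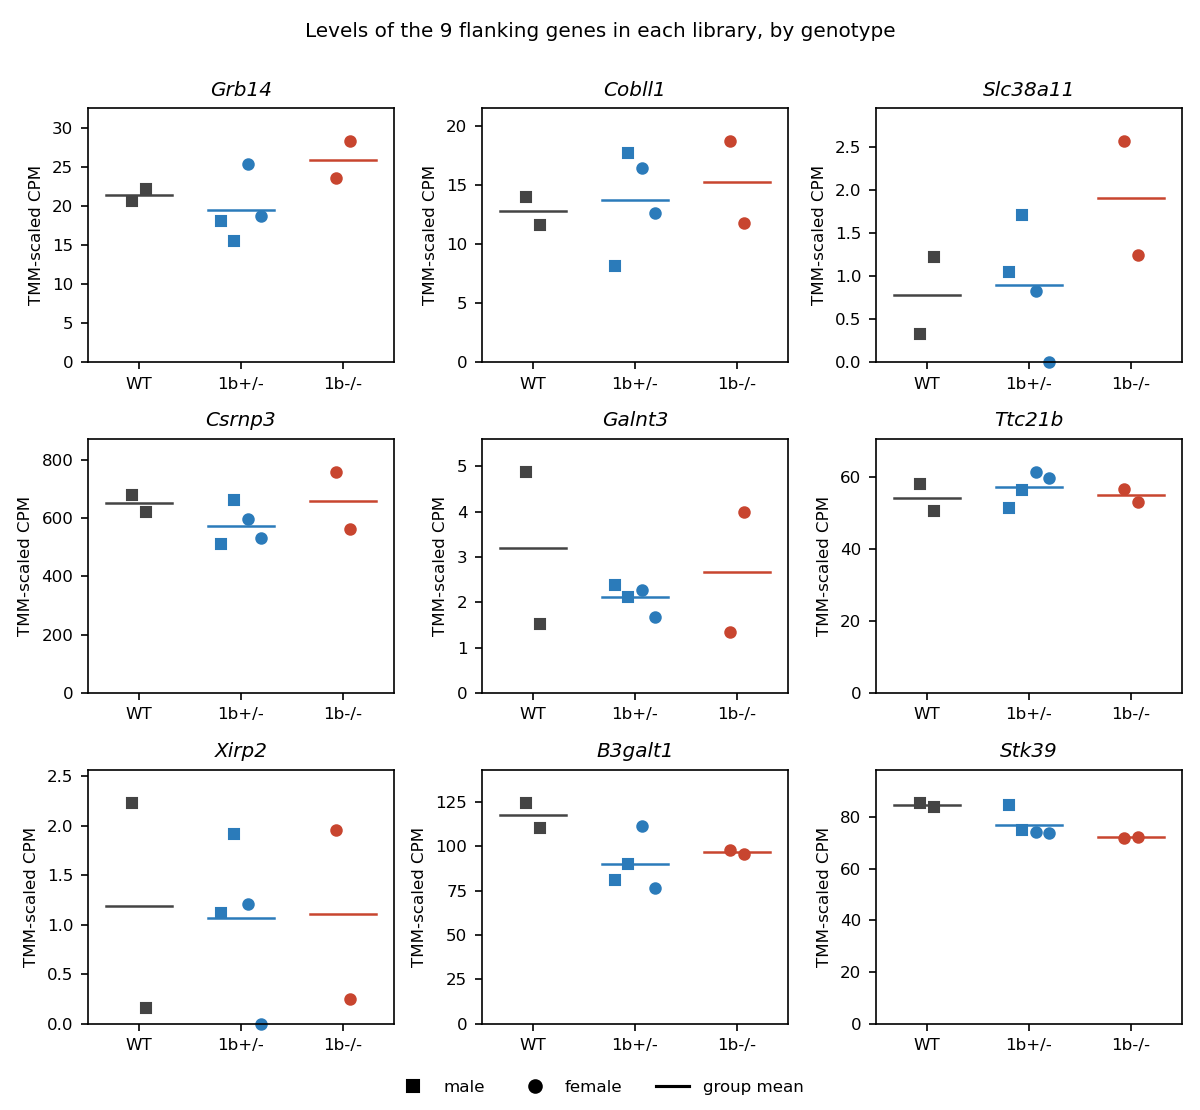
TMM-scaled CPM of the 9 flanking genes in each of the 8 libraries, in order along the chromosome. Each point is 1 mouse, squares are males, circles females and bars group means; every axis starts at 0. *Stk39* and *B3galt1* lie lower in both 1b-/- libraries than in both WT libraries, and *Slc38a11*, *Galnt3* and *Xirp2* spread widely within a genotype.

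*Grb14* was higher in both 1b-/- libraries than in WT and, within 1b+/-, higher in females than in males, and neither difference passed the test. It was at 20.6 and 22.2 CPM in WT, 18.1, 15.6, 25.4 and 18.7 CPM in 1b+/-, and 23.6 and 28.3 CPM in 1b-/-. Both 1b-/- libraries were above both WT libraries, with a log2 fold change of 0.27 (95% interval −0.26 to 0.81). Against 1b+/- it was 0.40 (−0.06 to 0.86). Within 1b+/- the females averaged 22.0 CPM and the males 16.9 CPM, a log2 difference of 0.41 (−0.09 to 0.92, unadjusted p = 0.0958, adjusted p = 0.9999 by edgeR). Tissue content differed between these mice too. Midbrain and hindbrain markers summed to 130 and 42.2 CPM in the males and to 18.2 and 20.0 CPM in the females. The part of this content in the difference between the sexes was not tested. With sex as a covariate, which takes the sex difference from 1b+/- alone, the value in 1b-/- against WT turned to −0.14. Female against male within 1b+/- called 0 of the 9 genes, where 0.0321% of all genes were called, and 0 of 9 had an unadjusted p under 0.05 against 2.66% of all genes.

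*Ttc21b*, the gene nearest to the deletion, was among the most even of the 9. It was at 57.9 and 50.6 CPM in WT, 51.3, 56.4, 61.3 and 59.8 CPM in 1b+/-, and 56.6 and 53.1 CPM in 1b-/-. All 3 genotypes overlapped. The fold change in 1b-/- against WT was 1.01, with a 95% interval from 0.785 to 1.30, and in 1b+/- against WT it was 1.05 (0.846 to 1.31). The direction of such small values was not stable: with sex as a covariate the log2 fold change in 1b-/- against WT was −0.16 in place of 0.02, and in 1b+/- against WT −0.014 in place of 0.07.

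*Csrnp3*, the most abundant flanking gene, was at 678 and 621 CPM in WT, 510, 660, 596 and 530 CPM in 1b+/-, and 758 and 561 CPM in 1b-/-. One 1b-/- library was the highest of all 8 and the other the third lowest, so the groups overlapped. The log2 fold change in 1b-/- against WT was 0.02 (−0.38 to 0.42), and with 1 deleted copy it was −0.18 (−0.52 to 0.17). Without 1b-/- replicate 1 the former was −0.21.

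*Cobll1* varied more than *Csrnp3*, by 2.29-fold from lowest to highest library against 1.49-fold, and the genotypes overlapped. It was at 13.97 and 11.6 CPM in WT, 8.18, 17.8, 16.4 and 12.7 CPM in 1b+/-, and 18.7 and 11.8 CPM in 1b-/-. The lowest library and the second highest were both 1b+/- males. Its log2 fold change was 0.27 (−0.50 to 1.04) in 1b-/- against WT and 0.10 (−0.56 to 0.77) in 1b+/- against WT. Without 1b-/- replicate 1 the former was −0.13, and without 1b+/- replicate 2 the latter was −0.05. *Cobll1* and *Csrnp3* had the highest correlation of log2 CPM of any pair among the 9 (r = 0.79), and *Cobll1* and *Stk39* the lowest (r = −0.57), over 8 libraries that share genotype, depth and tissue content.

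The 3 scarcest genes had at most 59 counts in a library. *Galnt3* had 59 and 10 counts in WT, 36, 21, 47 and 5 in 1b+/-, and 11 and 16 in 1b-/-. As CPM these were 4.88 and 1.53, then 2.38, 2.12, 2.28 and 1.67, then 1.35 and 4.01. The exact 95% Poisson intervals of the 2 WT libraries, 3.71 to 6.29 and 0.735 to 2.82 CPM, did not overlap, so the WT libraries differed from each other by more than counting error. WT replicate 1, the higher of them, also held more of the epithelial markers (164 against 43.4 CPM) and of the striated muscle list (147 against 68.8 CPM). The part of that content in the *Galnt3* values was not tested. The log2 fold change in 1b-/- against WT was −0.44 (−1.75 to 0.87), and without WT replicate 1 it was 0.69. In 1b+/- against WT it was −0.62 (−1.67 to 0.43), and without WT replicate 1 it was 0.50.

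*Slc38a11* had the largest estimate in 1b-/- and a wide interval. It had 4 and 8 counts in WT, 16, 17, 17 and 0 in 1b+/-, and 21 and 5 in 1b-/-. In CPM this was 0.331 and 1.23 in WT, 1.06, 1.72, 0.824 and 0 in 1b+/-, and 2.57 and 1.25 in 1b-/-. The 0 was in the shallowest library, where the exact 95% Poisson interval of a count of 0 reaches 1.23 CPM. Both 1b-/- libraries lay above both WT libraries, the lower of them only just above the higher WT library. The log2 fold change in 1b-/- against WT was 1.48 (−0.51 to 3.46, unadjusted p = 0.130, adjusted p = 1 by edgeR), and it ran from 0.70 without WT replicate 1 to 2.55 without WT replicate 2. With sex as a covariate it was 2.61 (unadjusted p = 0.0587, adjusted p = 0.9999 by edgeR), and per deleted allele 1.30 in place of 0.76 (unadjusted p = 0.0498, adjusted p = 0.999 by edgeR). In 1b+/- against WT it was 0.50 (−1.27 to 2.28), and without WT replicate 1 it was −0.28.

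*Xirp2* varied most of the 9 genes over the 8 libraries, with a coefficient of variation of 80.4%. It had 27 and 1 counts in WT, 17, 19, 25 and 0 in 1b+/-, and 16 and 1 in 1b-/-. In CPM this was 2.23 and 0.153, then 1.12, 1.92, 1.21 and 0, then 1.96 and 0.250. The 3 libraries with 0 or 1 count were 1 of each genotype and the 3 shallowest of the 8. The exact Poisson intervals of the 2 WT libraries, 1.47 to 3.25 and 0.0039 to 0.854 CPM, did not overlap. The 13 striated muscle genes on the list summed to 147 and 68.8 CPM in WT, 66.7 to 105 CPM in 1b+/- and 64.8 to 97.8 CPM in 1b-/-, and none was at 0 throughout. Of the 13, 9 were tested. *Neb* and *Ttn*, at means of 44.7 and 26.7 CPM over the 8 libraries, made up much of these sums. The part of the listed genes in the *Xirp2* values was not tested. The log2 fold change in 1b-/- against WT was −0.07 (−2.35 to 2.22). It was 2.92 without WT replicate 1 and −2.33 without 1b-/- replicate 1. In 1b+/- against WT the value of −0.13 (−2.003 to 1.74) became 2.86 without WT replicate 1.

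The comparison of 1b-/- with 1b+/- takes no WT level into its fold changes. The WT libraries still entered the scaling and the estimate of the spread, so the intervals depend on them. There *Galnt3* gave 0.18 (−1.01 to 1.37), *Cobll1* 0.17 (−0.50 to 0.84), *Csrnp3* 0.20 (−0.15 to 0.55), *Slc38a11* 0.98 (−0.62 to 2.57), *Xirp2* 0.06 (−1.95 to 2.08), *Ttc21b* −0.06 (−0.38 to 0.26) and *Stk39* −0.10 (−0.38 to 0.19), so all 9 intervals included 0. Of the 9 estimates 7 were above 0, as were 49.0% of all genes, with a median of 0.17 against −0.0043 over all genes. Several signs rested on 1 library. Without 1b-/- replicate 1 the values were −0.23 for *Cobll1*, −0.036 for *Csrnp3* and −2.20 for *Xirp2*, and without 1b-/- replicate 2 that of *Galnt3* was −0.69. In the 4 female libraries alone, where both genotypes have 2 mice, no flanking gene was called either.

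Complete separation of groups was counted alongside the test. Between 1b-/- and WT the libraries did not overlap for 4 of 9 genes, 2 higher in 1b-/- (*Grb14*, *Slc38a11*) and 2 lower (*B3galt1*, *Stk39*), while 23.6% of all genes did not overlap. Between 1b+/- and WT this held for 0 of 9, against 12.3% of all genes. Between 1b-/- and 1b+/- it held for 1 of 9 (*Stk39*), against 7.39% of all genes. The 95% interval stayed within 2-fold in both directions for 5 of 9 genes in 1b-/- against WT (*Grb14*, *Csrnp3*, *Ttc21b*, *B3galt1*, *Stk39*) and for 6 of 9 in 1b+/- against WT, those 5 and *Cobll1*. For the others the interval held a 2-fold change in at least 1 direction.

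**Figure D5:**
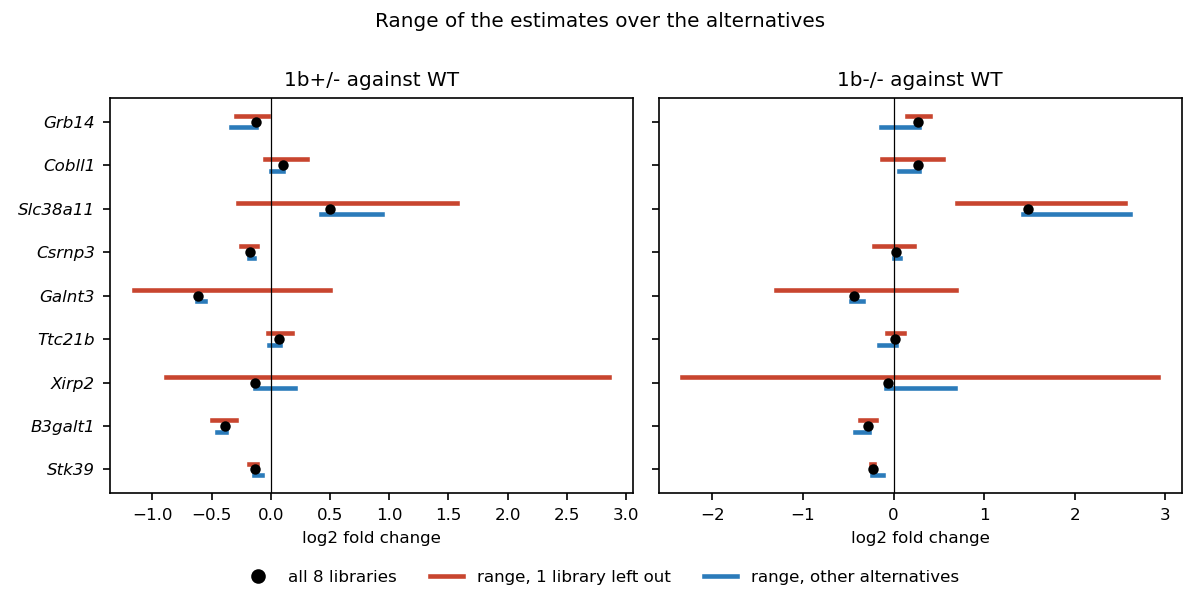
Log2 fold change of each flanking gene against WT with all 8 libraries (black points), with its range when each library was left out in turn (red) and over the other alternatives (blue). The ranges of *B3galt1*, *Stk39*, *Csrnp3* and *Grb14* stay below 0 in 1b+/- against WT, while those of *Xirp2*, *Galnt3* and *Slc38a11* span more than 1 log2 unit.

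Functional relatives of the flanking genes gave no calls either. The 8 lists held 65 genes, of which 63 were tested, and 0 were called in each of the 3 genotype comparisons, with edgeR or with DESeq2. At an unadjusted p under 0.05, 3 of 63 passed in 1b+/- against WT, where 4.34% of all genes did, a share near that background. None passed in the others, where 1.64% and 1.23% of all genes did. Their median log2 fold change was 0.03 and −0.01 for 1b+/- and 1b-/- against WT, and −0.02 between the deletion genotypes. The 3 were the amino acid transporters *Slc38a4* (0.64, interval 0.12 to 1.16) and *Slc38a5* (0.83, 0.13 to 1.52), and *Tulp3* (0.80, 0.32 to 1.28), which works with IFT-A in ciliary trafficking. With both copies deleted the same genes gave, against WT, 0.21, 0.66 and 0.49, each with an interval that included 0.

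Of the IFT-A list (7 tested), *Wdr35* and *Ift140*, further subunits of the complex, gave −0.04 and 0.01 in 1b-/- against WT. In the WNK and SPAK list (14 tested), which holds the WNK kinases, the second SPAK-type kinase *Oxsr1* and the SLC12 cotransporters, the most abundant were *Cab39*, a scaffold that activates SPAK, at −0.08, and *Wnk1* at −0.02. Among relatives and receptors of *Grb14* (6 tested), *Grb10* gave 0.0028 and *Igf1r* 0.11. *B3galt2*, the most abundant beta-1,3-glycosyltransferase on a list of 7, gave 0.06 with both copies deleted and −0.18 with 1, each against WT, and *B3glct* −0.01 and 0.20. Of 17 tested GALNT relatives, *Galnt2* gave 0.01 and *Galnt1* −0.12 in 1b-/- against WT. *Csrnp2* gave −0.03, the abundant transporters *Slc38a1* and *Slc38a2* −0.08 and −0.05, and *Cobl* −0.23.

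The sodium channel genes that lie between the flanking genes were measured in the same fit. *Scn2a1* and *Scn3a* had log2 fold changes of 0.05 (−0.30 to 0.41) and 0.06 (−0.31 to 0.44) in 1b-/- against WT. *Scn9a* was at 26.4 and 24.2 CPM in WT and at 46.9 and 29.5 CPM in 1b-/-. Its log2 fold change was 0.61 (−0.14 to 1.35), and the groups did not overlap, as for 23.6% of all genes. *Scn7a* was at 0.910 and 0.613 CPM in WT, 7.13, 2.12, 0.872 and 1.002 CPM in 1b+/-, and 0.367 and 0 CPM in 1b-/-. Its log2 fold change was −1.67 (−4.89 to 1.55) in 1b-/- against WT, and these groups did not overlap either. Against 1b+/-, whose replicate 1 held by far the highest level, it was −3.57 (−6.19 to −0.95, unadjusted p = 0.0118, adjusted p = 0.99998 by edgeR). Of the 5 channel genes only *Scn1a* was called, and only in the comparisons of 1b-/- with the other 2 genotypes.

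For each flanking gene with a mean of at least 10 CPM, the 2 tested genes whose log2 CPM followed it most closely over the 8 libraries were taken as a description, among 15563 genes. For *Csrnp3* these were *Pcf11* and *Nsd1* (r = 0.98 each), and for *Cobll1* *Pnn* (0.98) and *Zbtb26* (0.97). For *Grb14* they were *Pigl* (0.98) and *Sv2b* (0.96), and for *Ttc21b* *Zfp12* (0.98) and *Tfam* (0.97). For *B3galt1* they were *Pcdh20* (0.98) and *Snap91* (0.97), and for *Stk39* *Cpxm2* (0.96) and *Crispld2* (0.95). Each r is the highest of a search over that many genes at 8 points, and carries no test.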

How the data were processed

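RNA-seq libraries of 8 P7 mice were analysed. The authors made stranded poly(A) libraries with TruSeq kits, read 1 end, aligned with STAR 2.7.2 to mm9 and counted reads per gene with featureCounts. The deposited values are raw counts per gene symbol, and strand use, handling of multiply mapped reads and the annotation release were not given in the sources used here. Groups and sex came from the labels, which matched sex-linked genes in 8 of 8 libraries. Replicate numbers follow accession order.

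The 15588 genes that reached 1 CPM in 1 or more libraries were tested with edgeR 4.0.16 in R 4.3.3 (TMM scaling, quasi-likelihood test, genotype as factor, Benjamini-Hochberg adjustment, threshold 0.05). Poisson intervals cover counting error only. Correlations used log2(CPM + 0.5). Alternatives were other filters, RLE scaling, the likelihood ratio test, DESeq2 1.42.0, sex as a covariate, subsets of libraries and leaving out each library. Positions came from GENCODE vM1 and promoter windows from RefSeq, all 9 genes matching in both. The text names the 9 genes, the sodium channel genes of the locus, and the 2 genes most like each member. From each list of related genes, of outer chromosome 2 genes and of striated muscle genes it names the 2 most abundant and any past the threshold. The genes with an unadjusted p under 0.05 were named after their values were seen. The members and lists were chosen with earlier results of these data known.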

Additional observations from a re-analysis of the deposited data

Results flagged for a closer look

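*Stk39* in 1b+/- replicate 1 was at 84.9 CPM, apart from the other 3 libraries of that genotype (73.8 to 75.1 CPM). The gap to its nearest neighbour was 0.877 of the whole range of the group, above Dixon's 95% critical value for 4 samples. The check was run on 10 genes, the 9 flanking genes and *Scn1a*, in 1b+/- alone, and chance gives 0.5 such cases among 10. The same library was highest in midbrain and hindbrain markers (130 CPM) and in vascular and meningeal markers (2321 CPM). It was lowest in forebrain markers (2199 CPM) and hippocampal markers (320 CPM). The part of these in the *Stk39* value was not tested. Without this library the log2 fold change of *Stk39* in 1b+/- against WT was −0.19 (unadjusted p = 0.186) and not past the threshold.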

How the results depend on the processing

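None of the 9 flanking genes was past the threshold in any of the 74 refits under the alternatives, which include female against male within 1b+/-. Over the genotype comparisons the smallest adjusted p was 0.866 by edgeR's quasi-likelihood test. It was that of *B3galt1* in 1b+/- against WT without 1b+/- replicate 3. None of the related genes was past the threshold in any of 47 refits. Of the log2 fold changes of single genes, 510 kept their sign and 39 changed it. No paired analysis was possible because replicate numbers only follow accession order. The cause of the changes of sign was not tested. With sex as a covariate, the values in 1b+/- against WT were −0.0022 for *Cobll1*, −0.014 for *Ttc21b* and 0.18 for *Xirp2*. In 1b-/- against WT they were −0.14 for *Grb14*, −0.16 for *Ttc21b* and 0.68 for *Xirp2*, and per deleted allele −0.078, −0.077 and 0.32. The values in 1b-/- against WT assume the sex difference seen within 1b+/-. In males only, *Ttc21b* was −0.0064 and *Xirp2* 0.20 in 1b+/- against WT. With each library left out in turn, *Slc38a11* ran from −0.28 to 1.57, *Galnt3* from −1.16 to 0.50, *Xirp2* from −0.89 to 2.86, *Cobll1* from −0.050 to 0.31 and *Ttc21b* from −0.020 to 0.18 in 1b+/- against WT. In 1b-/- against WT, *Galnt3* ran from −1.30 to 0.69, *Xirp2* from −2.33 to 2.92, *Csrnp3* from −0.21 to 0.22, *Ttc21b* from −0.077 to 0.12 and *Cobll1* from −0.13 to 0.54. In 1b-/- against 1b+/-, *Cobll1* ran from −0.23 to 0.44, *Xirp2* from −2.20 to 0.70, *Csrnp3* from −0.036 to 0.40 and *Galnt3* from −0.69 to 0.87. Per deleted allele, *Galnt3* ran from −0.64 to 0.31, *Xirp2* from −0.55 to 0.72, *Ttc21b* from −0.042 to 0.038, *Cobll1* from −0.019 to 0.24 and *Csrnp3* from −0.12 to 0.073. *B3galt1* and *Stk39* stayed below 0 against WT under every alternative run. Where a group was left with 1 library, that library was assumed to vary like the others. Depth limits *Slc38a11*, *Xirp2* and *Galnt3*, for which 3 counts are 0.144 to 1.02 CPM across the libraries before TMM scaling.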

Other observations

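Further out on chromosome 2, a list of 26 genes on both sides of the flanking genes was measured as well, of which 24 were tested. None was past the threshold in the 3 genotype comparisons by edgeR's quasi-likelihood test, and at an unadjusted p under 0.05 there was 1 for 1b+/- against WT and 0 for the others, while 4.34%, 1.64% and 1.23% of all genes passed, so 1 of 24 is near the background. That gene, named after its values were seen, was *Dhrs9*, a retinol dehydrogenase, at 4.63 and 0.306 CPM in WT and at 0 to 0.734 CPM in the other 6 libraries, so that its log2 fold change of −2.67 (−4.60 to −0.75, adjusted p = 0.9999 and unadjusted p = 0.0106 by edgeR) came with 1 high WT library. That library was WT replicate 1, which was also highest in the epithelial markers (164 CPM), and the part of that content was not tested. The median log2 fold change of the list was −0.0085 for 1b+/- and 0.06 for 1b-/-, each against WT. The most abundant were *Ssb*, an RNA-binding protein that protects newly made small RNAs, and *Ppig*, a cyclophilin linked to splicing. In 1b-/- against WT they gave −0.10 (−0.59 to 0.39) and −0.21 (−0.80 to 0.39).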
